A study of Solanum lycopersicum with 8 samples.

Results

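The alpha-expansin genes described here are 10 tomato genes picked from the count table by a list of identifiers, out of 34722 identifiers in all. The list names them as alpha-expansins. The table pairs no identifier with a gene name, so each gene is called by its identifier and no role within the family is given to a single member. By the chromosome number that each identifier carries, 4 members lie on chromosome 6, 2 on chromosome 8, and 1 each on chromosomes 2, 3, 4 and 5. RNA was sequenced from young leaves of tomato seedlings of the cultivar M82 and of pro∆GRAS, a mutant of the DELLA gene PROCERA that the table's headers call null. All seedlings of both genotypes, the controls included, had received paclobutrazol at 10 mg/l daily for 3 days. A group of each genotype was then given GA3 at 100 µM, with leaves taken 3 hours later, and the other group of each genotype had no GA3. Each of these 4 groups held 2 libraries, called by the number in the table's headers. The labels used here give neither the age of the seedlings nor whether a replicate was a plant or a pool, so the tests measure the spread between these libraries, which may be technical in part. Neither the PROCERA transcript nor leaf marker genes were analysed here, because the identifiers carry no names, and the labels of genotype and tissue were therefore not checked against them.

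Alpha-expansins are secreted proteins that loosen plant cell walls. They act at acid pH and weaken the contacts between cellulose and the polymers around it without cutting them, which lets turgor stretch the wall. Gibberellin (GA) promotes growth of leaves and stems. It binds the receptor GID1, the receptor then binds DELLA, and DELLA, a repressor of GA responses, is degraded. Paclobutrazol blocks an early step of GA synthesis, so that GA3 is added to plants with little GA of their own. The comparisons therefore ask which expansin genes have transcripts in young leaves, which follow GA3, and which differ where DELLA function is lost.

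Of the 10 genes, 8 had enough reads to be tested and 2 did not. Solyc08g077910.2 had no read in any of the 8 libraries, which allows a level of up to 0.0219 CPM (read counts divided by the TMM-scaled library size in units of 1000000 reads) at a limit of 3 reads over all libraries. Solyc08g077900.2, the identifier just before it on chromosome 8, had 9 reads in all. Of these, 6 were in mutant library 3 without GA3, 2 in M82 library 1 with GA3 and 1 in mutant library 3 with GA3. Differences between groups were not detectable for these 2 genes at this depth, and such limits cover counting error only. Solyc06g051800.2 was near the limit of the test, with 10 to 78 reads per library. The other 7 genes had at least 145 reads in every library. CPM values are scaled to library size but not to transcript length, so they are compared below within a gene and not between genes. Because the samples are bulk leaf tissue, fewer expressing cells and less RNA per cell cannot be told apart.

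Total counts ran from 14395465 to 18483028 per library. The top 100 genes held 45.5% of the reads of M82 library 3 without GA3 and 50.3% of those of M82 library 2 with GA3, and 31.4% to 41.3% in the remaining 6 libraries. Of the 8 tested expansin genes, 6 were lower in M82 library 3 without GA3 than in M82 library 1 without GA3. Library 1 was the higher for 7 of the 8 in M82 with GA3, for 2 in the mutant without GA3 and for 6 in the mutant with GA3, with median differences of 0.20, -0.16 and 0.05 on the log2 scale. In M82 without GA3 the median difference over the 8 genes was 0.55, against -0.01 over all 18340 genes tested. The part of this difference in the results below was not tested, beyond the values without each library that are given there.

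Summed over the 10 genes, expansin reads were lowest in M82 without GA3. They came to 397 and 324 CPM in its 2 libraries. The sum was 780 and 725 CPM in M82 with GA3, 662 and 801 CPM in the mutant without GA3 and 768 and 674 CPM in the mutant with GA3. Both M82 libraries without GA3 thus lay below the other 6, and those 6 overlapped one another across groups. The gap in the sum lay mainly in Solyc06g049050.2, Solyc02g088100.2 and Solyc04g081870.2. Their means without GA3 were 140, 39.0 and 27.7 CPM in M82 and 343, 112 and 129 CPM in the mutant. Of the 8 tested genes, 5 were higher in the mutant than in M82 without GA3 and 3 were lower.

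**Figure D1:**
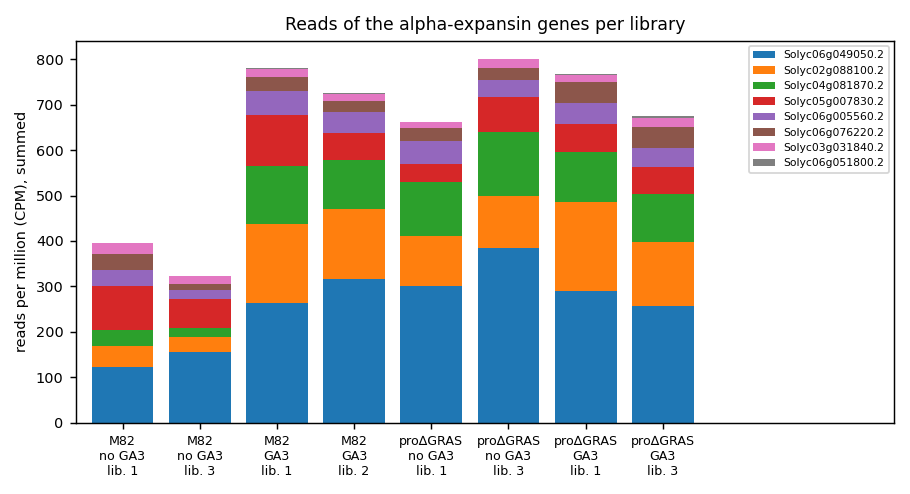
Level (CPM, y axis, from 0) of the 8 tested alpha-expansin genes, stacked per library (x axis: genotype, GA3 treatment and library number). The stacks of M82 without GA3 reach 397 and 324 CPM and the other 6 lie between 662 and 801 CPM; the height of a segment is not scaled to transcript length.

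Solyc06g049050.2 had the most reads of the list. Its levels were 123 and 156 CPM in M82 without GA3, 263 and 317 CPM in M82 with GA3, 302 and 385 CPM in the mutant without GA3 and 289 and 257 CPM in the mutant with GA3. The 2 M82 libraries without GA3 were the lowest of the 8, and the 3 other groups overlapped except that both mutant libraries with GA3 lay below both without. This last gap was absent when libraries were scaled by their totals alone.

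Solyc02g088100.2 was at 46.0 and 32.1 CPM in M82 without GA3 and at 176 and 153 CPM in M82 with GA3. In the mutant it was at 110 and 115 CPM without GA3 and at 197 and 140 CPM with GA3. M82 without GA3 was again lowest, the mutant without GA3 lay above it and below all 4 libraries with GA3, and the 2 groups with GA3 overlapped. It was the 1 gene of the list in which every library with GA3 exceeded every library without GA3.

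Solyc04g081870.2 was at 35.0 and 20.3 CPM in M82 without GA3 and at 126 and 109 CPM in M82 with GA3. In the mutant it was at 118 and 140 CPM without GA3 and at 110 and 106 CPM with GA3. All libraries but those of M82 without GA3 lay between 106 and 140 CPM, and M82 with GA3 overlapped both groups of the mutant.

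Solyc06g005560.2 was also lowest in M82 without GA3, with smaller gaps. It was at 37.0 and 21.1 CPM in M82 without GA3, 51.0 and 47.1 CPM in M82 with GA3, 48.5 and 37.3 CPM in the mutant without GA3 and 44.3 and 42.9 CPM in the mutant with GA3. The higher M82 library without GA3 lay only just below the lower mutant library without GA3. Scaled by library totals alone, this order did not hold. M82 library 1 without GA3 was then at 38.6 CPM, M82 library 2 with GA3 at 38.2 CPM and mutant library 3 without GA3 at 37.5 CPM. For this gene and those above, the share of all genes with both M82 libraries without GA3 lowest was not computed.

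Solyc06g076220.2 and Solyc06g051800.2 were highest in the mutant with GA3. Solyc06g076220.2 was at 47.1 and 45.6 CPM there, against 29.2 and 28.0 CPM in the mutant without GA3. In M82 it was at 34.5 and 11.7 CPM without GA3 and at 31.9 and 23.4 CPM with GA3, and these groups overlapped. Solyc06g051800.2, the weakest tested gene, was at 2.46 and 4.15 CPM in the mutant with GA3 and between 0.702 and 1.55 CPM in the other 6 libraries. These low levels rested on 52 and 78 reads in the mutant with GA3 and on 10 to 28 reads elsewhere. The share of all genes with both mutant libraries with GA3 highest was not computed.

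Solyc05g007830.2 and Solyc03g031840.2 had reads in every library and showed no order of the groups that held beyond the spread in most of them. Solyc05g007830.2 was at 95.6 and 63.7 CPM in M82 without GA3, 114 and 57.7 CPM in M82 with GA3, 41.5 and 76.6 CPM in the mutant without GA3 and 63.0 and 59.7 CPM in the mutant with GA3. Its 2 libraries of a group differed by more than the group means did, except in the mutant with GA3. Solyc03g031840.2 was at 24.3 and 18.2 CPM in M82 without GA3, 17.1 and 16.7 CPM in M82 with GA3, 13.5 and 18.1 CPM in the mutant without GA3 and 16.1 and 18.9 CPM in the mutant with GA3. It was the 1 tested gene whose highest group mean was that of M82 without GA3.

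**Figure D2:**
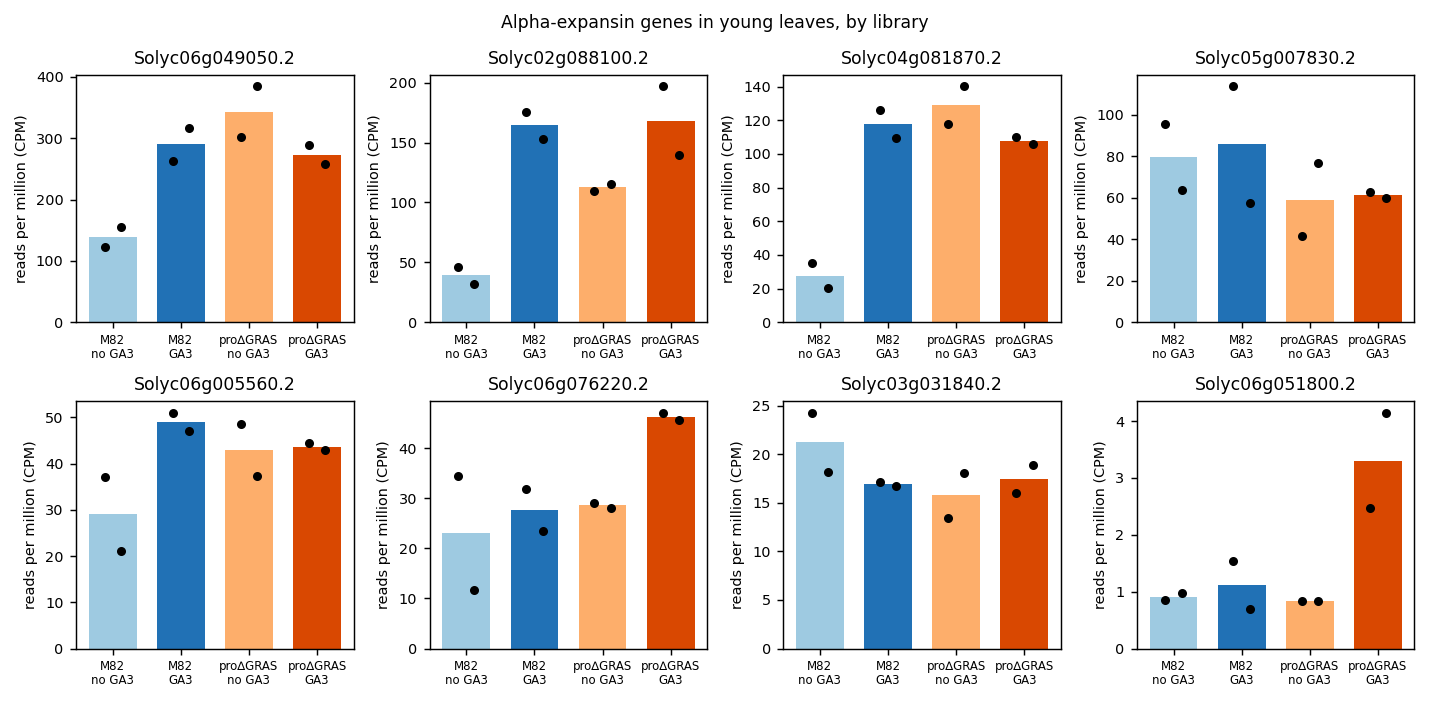
Level (CPM, y axis, from 0 and scaled to each gene) of the 8 tested alpha-expansin genes in each library (points) with the mean of 2 libraries (bars), by genotype and GA3 treatment. In Solyc06g049050.2, Solyc02g088100.2, Solyc04g081870.2 and Solyc06g005560.2 both M82 libraries without GA3 lie below both M82 libraries with GA3.

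GA3 in M82 was compared first, as the response of plants with a functional DELLA. Solyc04g081870.2 and Solyc02g088100.2 were about 4-fold higher after GA3, and neither met the threshold of an adjusted p under 0.05. Solyc04g081870.2 was at 27.7 ± 10.4 CPM without and 118 ± 11.998 CPM with GA3 (SD, n = 2), a log2 fold change of 2.09 with a 95% confidence interval of 1.43 to 2.75 (edgeR adjusted p = 0.0557). Solyc02g088100.2 was at 39.0 ± 9.89 and 164 ± 16.2 CPM, a log2 fold change of 2.07 with an interval of 1.43 to 2.71 (edgeR adjusted p = 0.0557). By the size of p they were 12th and 10th of all 18340 genes. Solyc06g049050.2 was about 2-fold higher, with a log2 fold change of 1.06 (interval 0.45 to 1.66, edgeR adjusted p = 0.349), and Solyc06g005560.2 was higher by 0.75 (interval 0.12 to 1.39, edgeR adjusted p = 0.601). In these 4 genes both libraries with GA3 exceeded both without, where 19.3% of all genes did so, and in Solyc03g031840.2 both lay below, where 16.6% did so. Scaled by library totals alone, the groups of Solyc06g005560.2 and of Solyc03g031840.2 overlapped. The intervals of the remaining 4 genes included 0, and the smallest log2 fold change of the list was that of Solyc03g031840.2 (-0.33, interval -0.88 to 0.23). The median over the 8 tested genes was 0.54 and that over all genes -0.00264.

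By edgeR, 0 expansin genes were called for GA3 in M82, where 0.0164% of all genes were. At an unadjusted p under 0.05 there were 4, against 7.62% of all genes. DESeq2 called 3 of the 8, where 0.589% of all genes were called: Solyc02g088100.2 (DESeq2 adjusted p = 3.48e-08), Solyc04g081870.2 (DESeq2 adjusted p = 1.28e-07) and Solyc06g049050.2 (DESeq2 adjusted p = 0.0304). Without M82 library 1 without GA3, the log2 fold changes of Solyc02g088100.2 and Solyc04g081870.2 were 2.36 and 2.53. Without M82 library 3 without GA3, in which both genes were low, they were 1.80 and 1.72. They were 1.94 and 1.95 without M82 library 1 with GA3, and 2.18 and 2.20 without M82 library 2 with GA3. Each of these fits leaves 1 library in a group, so only the sizes are given here.

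GA3 in the mutant was compared next, as the response that remains where DELLA function is lost. No expansin gene was called there by edgeR or by DESeq2, which called 0% and 0.158% of all genes. At an unadjusted p under 0.05 there was 1 gene, Solyc06g051800.2, against 2.67% of all genes. It was at 0.834 ± 0.00789 CPM without and 3.31 ± 1.19 CPM with GA3 (SD, n = 2), a log2 fold change of 1.98 with an interval of 0.79 to 3.16 (edgeR adjusted p = 0.99998). Solyc06g076220.2 was at 28.6 ± 0.784 and 46.4 ± 1.11 CPM, a log2 fold change of 0.70 with an interval of -0.21 to 1.61 (edgeR adjusted p = 0.99998). Solyc02g088100.2 was at 112 ± 3.87 and 168 ± 40.6 CPM, a log2 fold change of 0.58 with an interval of -0.04 to 1.20. In these 3 genes the libraries with GA3 lay above those without, where 14.3% of all genes did so. In Solyc06g049050.2 and Solyc04g081870.2 they lay below, with log2 fold changes of -0.33 (interval -0.93 to 0.27) and -0.26 (interval -0.89 to 0.38), where 14.9% of all genes did so. Scaled by library totals alone, these last 2 values were -0.18 and -0.11 and the groups of both genes overlapped. Under that scaling both libraries of Solyc03g031840.2 with GA3 lay above both without. The median of all genes moved to 0.13 there, and the share of all genes with this order was not computed. For Solyc04g081870.2 the upper bound of 0.38 is below the lower bound of 1.43 in M82. These intervals are not adjusted for the number of genes, and the difference itself is tested below (edgeR adjusted p = 0.546). The median over the 8 genes was 0.10 and that over all genes -0.00986.

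Whether GA3 acted differently in the genotypes was tested as the difference of the GA effects, that in the mutant minus that in M82. It was -2.34 for Solyc04g081870.2 (interval -3.25 to -1.43, edgeR adjusted p = 0.546), which was 7th of all genes by the size of p. It was -1.49 for Solyc02g088100.2 (interval -2.37 to -0.62, edgeR adjusted p = 0.994) and -1.38 for Solyc06g049050.2 (interval -2.24 to -0.53, edgeR adjusted p = 0.994). For Solyc06g051800.2 it was 1.65 (interval -0.07 to 3.37). By edgeR 0 expansin genes and 0% of all genes were called, with 3 expansin genes at an unadjusted p under 0.05, against 3.76% of all genes. DESeq2 called 1 of the 8, Solyc04g081870.2 (DESeq2 adjusted p = 0.00193), where 0.109% of all genes were called. Without the low-count filter edgeR called Solyc04g081870.2 too (adjusted p = 0.0103), and with single libraries left out its adjusted p ran from 0.105 to 0.99996.

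**Figure D3:**
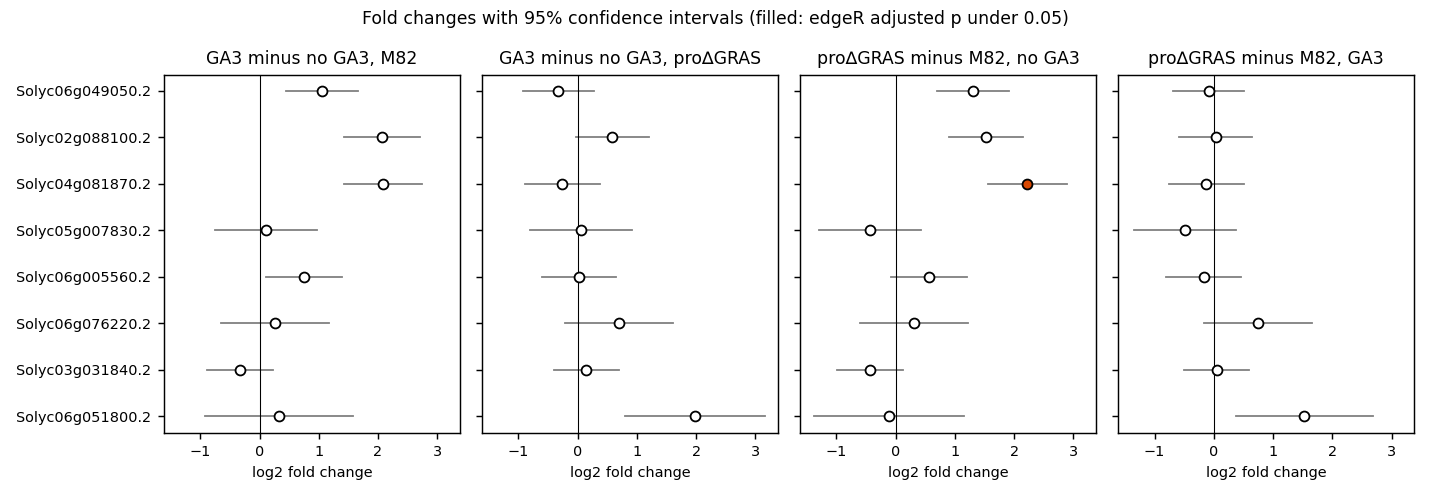
Log2 fold changes (x axis, points) with 95% confidence intervals (lines) of the 8 tested alpha-expansin genes in 4 comparisons; a filled point has an edgeR adjusted p under 0.05. Solyc04g081870.2 is at 2.09 for GA3 in M82, -0.26 for GA3 in the mutant, 2.22 between the genotypes without GA3, where it is filled, and -0.13 between them with GA3 (0.17 when scaled by library totals alone).

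Between the genotypes without GA3, Solyc04g081870.2 was the 1 expansin gene called by edgeR, where 0.393% of all genes were called. It was higher in the mutant, at 129 ± 15.9 CPM against 27.7 ± 10.4 CPM in M82 (SD, n = 2), a log2 fold change of 2.22 with an interval of 1.55 to 2.88 (SE 0.297, edgeR adjusted p = 0.0268). Its call was lost without M82 library 3 without GA3 (edgeR adjusted p = 0.0508), without mutant library 1 without GA3 (0.180), without mutant library 3 without GA3 (0.134) and in a fit of the 4 compared libraries alone (0.0516). In these 4 fits its log2 fold change was 1.85, 2.35, 2.09 and 2.22.

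A further 2 genes were higher in the mutant without GA3 but missed the threshold. Solyc02g088100.2 was at 112 ± 3.87 CPM in the mutant and 39.0 ± 9.89 CPM in M82, a log2 fold change of 1.53 with an interval of 0.89 to 2.16 (edgeR adjusted p = 0.0663). Solyc06g049050.2 was at 343 ± 58.7 and 140 ± 22.9 CPM, a log2 fold change of 1.30 with an interval of 0.69 to 1.91 (edgeR adjusted p = 0.0986). DESeq2 called both of them and Solyc04g081870.2, 3 of the 8, where 2.25% of all genes were called, with DESeq2 adjusted p-values of 0.000122, 0.000506 and 3.38e-09. Without M82 library 1 without GA3 edgeR called Solyc02g088100.2 (adjusted p = 0.0368, log2 fold change 1.81). At an unadjusted p under 0.05 there were 3 expansin genes by edgeR, against 10.2% of all genes.

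In these 3 genes and Solyc06g005560.2 both mutant libraries lay above both M82 libraries, where 19.3% of all genes did so. For Solyc06g005560.2 the log2 fold change was 0.56 (interval -0.08 to 1.20, edgeR adjusted p = 0.570). In Solyc03g031840.2 and Solyc06g051800.2 both mutant libraries lay below, where 17.6% of all genes did so. Their log2 fold changes were -0.43 (interval -0.99 to 0.13) and -0.12 (interval -1.39 to 1.15). Scaled by library totals alone, the groups of Solyc06g005560.2, Solyc03g031840.2 and Solyc06g051800.2 overlapped. The median over the 8 tested genes was 0.43 and that over all genes -0.01. This comparison and that of GA3 in M82 share the 2 M82 libraries without GA3, so the values of the 2 comparisons are not independent of each other.

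Between the genotypes with GA3, the 3 genes with the largest differences without GA3 were within error of each other. The log2 fold change was 0.03 for Solyc02g088100.2 (interval -0.58 to 0.65), -0.09 for Solyc06g049050.2 (interval -0.69 to 0.51) and -0.13 for Solyc04g081870.2 (interval -0.76 to 0.51). The bounds of these intervals, -0.76 and 0.65 at their widest, hold for single genes at the TMM scaling and are not adjusted for the number of genes. Scaled by library totals alone, the values of these 3 genes were 0.34, 0.24 and 0.17, where the median of all genes moved to 0.32. Under that scaling both mutant libraries of Solyc06g049050.2 exceeded both M82 libraries, and so did those of Solyc03g031840.2. The share of all genes that did so under that scaling was not computed. Solyc06g051800.2 was higher in the mutant by 1.53 (interval 0.37 to 2.69, edgeR adjusted p = 0.240), as 3.31 ± 1.19 CPM against 1.12 ± 0.598 CPM (SD, n = 2). Solyc06g076220.2 was higher by 0.74 (interval -0.17 to 1.65, edgeR adjusted p = 0.420). In these 2 genes both mutant libraries exceeded both M82 libraries, where 24.6% of all genes did so, and in Solyc06g005560.2 both lay below, where 25.2% did so, though its groups overlapped when scaled by library totals alone. No expansin gene was called by edgeR or DESeq2, which called 0.354% and 3.01% of all genes, and 1 had an unadjusted edgeR p under 0.05, against 14.7% of all genes.

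**Figure D4:**
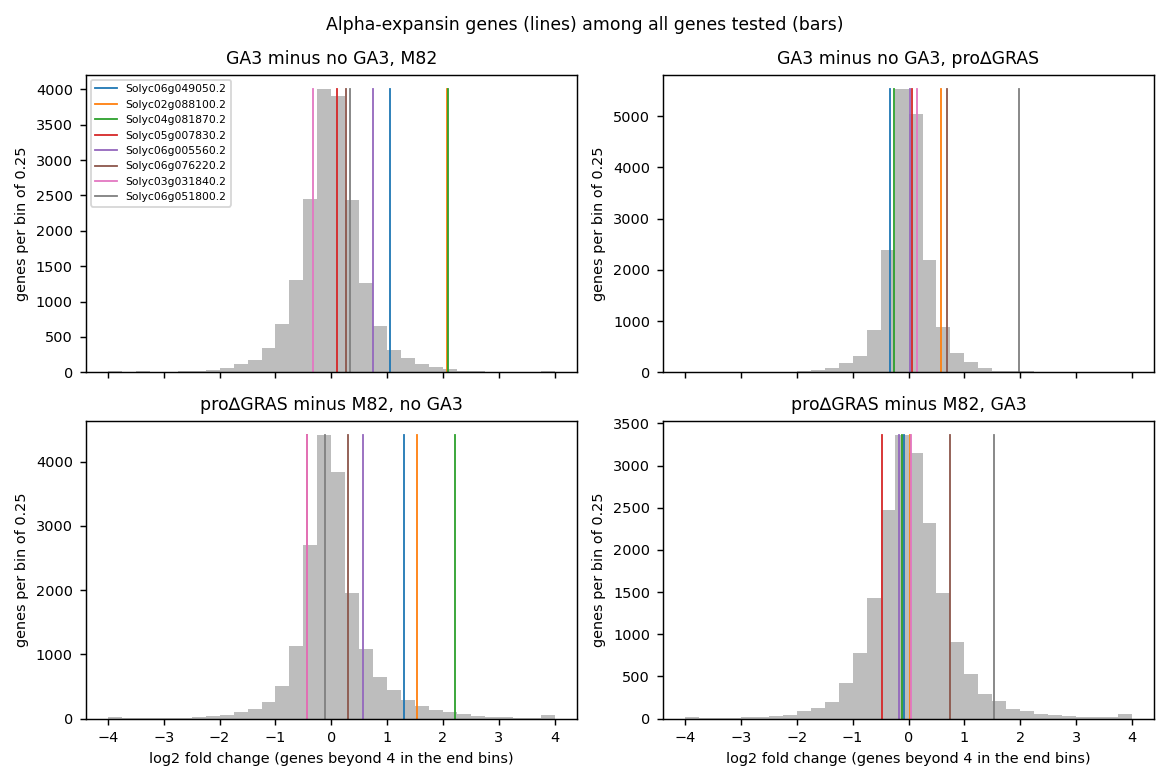
Log2 fold changes (x axis) of the 8 tested alpha-expansin genes (coloured lines, whose height has no meaning) over a histogram of all 18340 genes tested (grey bars, y axis: genes per bin of 0.25), in 4 comparisons. Solyc02g088100.2 (2.07) and Solyc04g081870.2 (2.09) lie in the right tail for GA3 in M82, and in the lower right panel most lines lie in the middle of the bars.

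Averaging over the second factor used all 8 libraries for each comparison. For GA3 averaged over the genotypes, Solyc02g088100.2 was at 166 ± 25.3 CPM with and 75.8 ± 42.8 CPM without GA3 (SD, n = 4), a log2 fold change of 1.33 with an interval of 0.88 to 1.77 (edgeR adjusted p = 0.0836, DESeq2 adjusted p = 8.27e-07). Its 4 libraries with GA3 all exceeded the 4 without, where 1.57% of all genes did so, and no expansin gene showed the opposite, where 0.943% of all genes did. By edgeR 0 expansin genes and 0% of all genes were called, with 3 expansin genes at an unadjusted p under 0.05, against 6.15% of all genes. DESeq2 called Solyc02g088100.2 and Solyc04g081870.2 (DESeq2 adjusted p = 0.0118), 2 of the 8, where 0.496% of all genes were called. For Solyc04g081870.2 the averaged value of 0.92 (interval 0.46 to 1.37) combines 2.09 in M82 with -0.26 in the mutant.

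For the genotype averaged over the treatments, edgeR called 1 expansin gene, where 3.05% of all genes were called. This was Solyc04g081870.2, at 118 ± 15.3 CPM in the mutant and 72.7 ± 52.8 CPM in M82 (SD, n = 4), a log2 fold change of 1.05 with an interval of 0.59 to 1.50 (edgeR adjusted p = 0.0277). The average combines a difference of 2.22 without GA3 with one of -0.13 with GA3, and the libraries of the genotypes overlapped. Its edgeR adjusted p was 0.0519 to 0.115 without any 1 of the 2 M82 libraries with GA3 or the 4 mutant libraries, and 0.00609 and 0.0385 without M82 libraries 1 and 3 without GA3. DESeq2 called 3 of the 8 genes, Solyc04g081870.2, Solyc02g088100.2 and Solyc06g049050.2, where 6.95% of all genes were called. At an unadjusted edgeR p under 0.05 there were 3, against 19.4% of all genes. In no expansin gene were all 4 mutant libraries above or below all 4 of M82, where 6.38% and 5.80% of all genes were. Scaled by library totals alone, they were above for Solyc06g049050.2. The median of all genes moved to 0.21 there, and the share of all genes with this order was not computed.

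**Figure D5:**
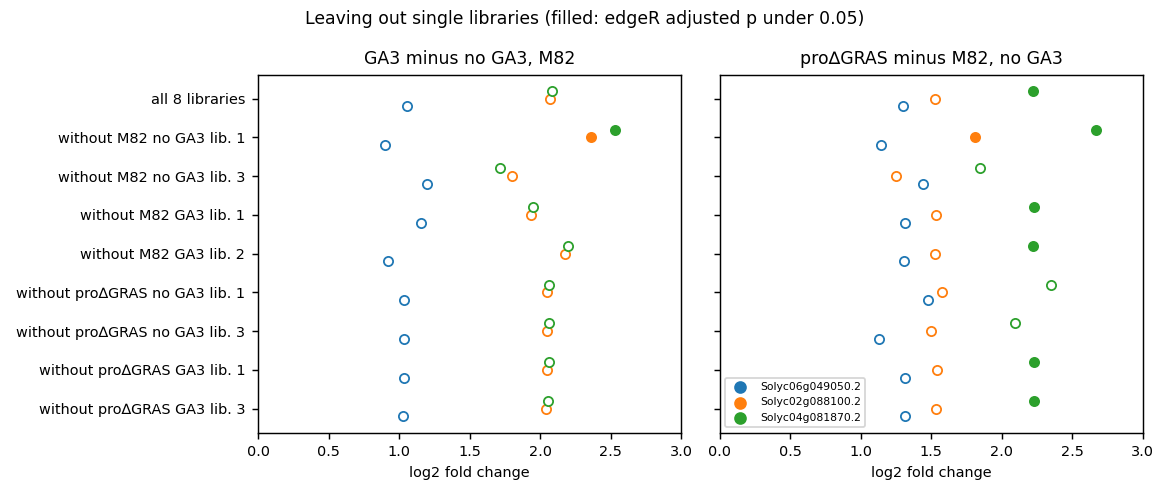
Log2 fold changes (x axis, from 0) of 3 alpha-expansin genes with all 8 libraries and without each library in turn (y axis), for GA3 in M82 and for the mutant against M82 without GA3; filled points have an edgeR adjusted p under 0.05. Every value lies above 0, from 0.90 to 2.67, while the call of Solyc04g081870.2 between the genotypes is present in 6 of these 9 fits and that of Solyc02g088100.2 in 1.

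The genes whose levels over the 8 libraries were most like those of the 2 members with the most reads were sought among the 16181 genes whose mean reached 1 CPM. For Solyc06g049050.2 this was Solyc04g040000.2 (Pearson 0.961, Spearman 0.810 on log2 CPM, 8 libraries), and for Solyc02g088100.2 it was Solyc10g005210.2 (0.979 and 0.881). Neither stood alone: 33 genes had a Pearson value over 0.9 with Solyc06g049050.2 and 82 with Solyc02g088100.2. Within the list the closest pair was Solyc02g088100.2 and Solyc04g081870.2 (Pearson 0.931), followed by Solyc06g049050.2 and Solyc04g081870.2 (0.897). Solyc03g031840.2 ran against Solyc06g049050.2 (-0.687). These values are descriptions: the libraries form 4 groups and share the gap between M82 without GA3 and the rest.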

How the data were processed

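The authors deposited a table of unnormalized counts, 1 column per library, and, per the file headers, 8 further columns of DESeq-normalized counts, which were not used. The authors' counts come from TopHat2 2.0.10 and HTSeq 0.6.1p1, with DESeq2 1.6.3 also listed, per the submitters' processing notes; the genome build, annotation and counting options are not given in the sources used here. Libraries were made with a TruSeq kit that does not mark strand, per the labels' protocols, so reads of overlapping genes on opposite strands could be assigned wrongly. Apart from strand, reads shared by near-identical expansin genes could be left out or assigned wrongly, depending on the counting options. Of 34722 identifiers, 0 matched the tomato gene table used here, so no names, transcript lengths, coordinates or sequences are given. Of the 8 count columns, 5 matched a sample title in genotype, treatment and number, and 3 carry the number 3, which shows the group but not the sample. No libraries of a group were copies (chi-square per degree of freedom 35.1 to 81.7).

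Low genes were removed by filterByExpr at a minimum count of 10, so that 18340 genes holding 99.94% of the reads were tested. The test was the robust quasi-likelihood F test of edgeR 4.0.16 (R 4.3.3) with TMM scaling, in 1 model of the 4 groups with 4 residual degrees of freedom. Adjusted p-values are Benjamini-Hochberg over these genes, with 0.05 as the threshold for a call. SE is the log2 fold change over the square root of F. The 95% intervals use the t quantile at edgeR's total degrees of freedom. These add prior degrees of freedom, borrowed across genes, to the 4 residual ones. The intervals are therefore narrower than 4 degrees of freedom alone would give. DESeq2 1.42.0, without independent filtering, other scalings, filters and blocks, smaller fits and leaving out each library were the alternatives. The procedure was also run on simulated counts. The outcome is not given here, so no rate of missed or false calls is stated. The members and lists were chosen with earlier results of these data known; all 10 members are named. Genes outside the list are named only where they are most alike to 1 of the 2 members with the most reads, and the 2 nearest identifiers on each side of a member are given as counts. The values of those neighbours that are printed, not named, were chosen for printing after they were seen.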

Additional observations from a re-analysis of the deposited data

Results flagged for a closer look

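In 4 genes the groups did not overlap and stood in opposite directions under the same contrast, and the difference itself was tested as the interaction. This held for 2 of the 8 expansin genes for GA3 in M82 and in the mutant, where 3.85% of all genes did so, and for another 2 between the genotypes without and with GA3, where 3.24% of all genes did so. In all 4 genes it depended on the scaling: by library totals alone, the groups overlapped in at least 1 of the 2 contrasts.

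With GA3, Solyc04g081870.2 was higher in both M82 libraries (log2 fold change 2.09) and lower in both mutant libraries (-0.26, interval -0.89 to 0.38), and the difference of -2.34 had an edgeR adjusted p of 0.546 and a DESeq2 adjusted p of 0.00193. By library totals alone the mutant value was -0.11, with overlap. Solyc06g049050.2 was at 1.06 in M82 and -0.33 in the mutant (interval -0.93 to 0.27; edgeR adjusted p of the difference 0.994, DESeq2 0.195), and its mutant value by library totals alone was -0.18, with overlap.

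Against M82, Solyc06g051800.2 was at -0.12 in the mutant without GA3 (interval -1.39 to 1.15) and at 1.53 with GA3 (edgeR adjusted p of the difference 0.994). Its counts without GA3 were 16 and 15 in the mutant and 13 and 12 in M82, and by library totals alone the first value was -0.0074, with overlap. Solyc06g005560.2 was at 0.56 in the mutant without GA3 (interval -0.08 to 1.20) and at -0.17 with GA3 (interval -0.80 to 0.46; edgeR adjusted p of the difference 0.994). By library totals alone its groups overlapped in both contrasts, and the value with GA3 was 0.13.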

How the results depend on the processing

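Of the 56 log2 fold changes (8 genes in 7 comparisons), those called by edgeR kept their sign under every alternative run. The count of called expansin genes was 0 for GA3 in M82 and 2 without the low-count filter, 3 with DESeq2, 2 with a replicate block of number 1 against the other library and 0 to 2 without single libraries. Between the genotypes without GA3 it was 1, and 3 without the filter, with DESeq2 and with that block, 0 in a fit of the 4 compared libraries and 0 to 2 without single libraries. For the difference of the GA effects it was 0, and 1 without the filter and with DESeq2. For GA3 averaged over the genotypes it was 0, and 2 without the filter and with DESeq2 and 1 with that block. For the genotype averaged over the treatments it was 1, and 2 with library totals, without the filter and with that block, 3 with DESeq2, 0 with the table's library numbers as a replicate block and 0 to 3 without single libraries. For GA3 in the mutant and the genotypes with GA3 it was 0 throughout. The cause was not tested. The numbers share no stated pairing: differences between library 1 and the other correlated at 0.421 between the M82 groups and at -0.0218 to 0.180 between the other pairs of groups. With number 1 against the other as the replicate block, the 2 genes called for GA3 in M82 were Solyc02g088100.2 and Solyc04g081870.2 (edgeR adjusted p = 0.0297 for both). Neither was called with the table's numbers as the block (log2 fold changes 2.03 and 2.12) or with library totals (edgeR adjusted p = 0.170 and 0.178).

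Called genes over the whole table numbered 3 for GA3 in M82 and 92 without the filter, 72 and 338 between the genotypes without GA3, and 65 and 438 with GA3. With number 1 against the other as the replicate block they numbered 33 for GA3 in M82, 166 between the genotypes without GA3, 14 for GA3 averaged over the genotypes and, for the genotype averaged over the treatments, 921 against 559. Without M82 library 1 without GA3 they numbered 22, 180, 3 and 1126. With the table's numbers as the block the averaged genotype gave 229, and the fit of the 4 compared libraries gave 48 between the genotypes without GA3. Without single libraries they ran from 0 to 22 for GA3 in M82, from 1 to 180 between the genotypes without GA3 and from 119 to 1126 for the averaged genotype. With library totals the calls split as 56 higher and 11 lower in the mutant with GA3, against 35 and 30, and as 560 and 107 averaged over the treatments, against 357 and 202. Library totals moved the median of all genes to 0.32 between the genotypes with GA3, 0.21 averaged over the treatments, 0.20 for the difference of GA effects and 0.13 for GA3 in the mutant. With them, values between the genotypes with GA3 turned to 0.240 (Solyc06g049050.2), 0.133 (Solyc06g005560.2) and 0.172 (Solyc04g081870.2), the difference of GA effects to 0.135 (Solyc05g007830.2) and the averaged genotype value to 0.00191 (Solyc03g031840.2), each below the median of all genes. With the table's numbers as a block Solyc03g031840.2 turned to -0.0157 with GA3.

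Leaving out single libraries turned the sign of 16 values, none of them called. For GA3 in M82, Solyc06g051800.2 ran from -0.394 to 0.776, Solyc06g076220.2 ran from -0.351 to 1.24, Solyc05g007830.2 ran from -0.497 to 0.522. For GA3 in the mutant, Solyc06g005560.2 ran from -0.150 to 0.226, Solyc03g031840.2 ran from -0.0508 to 0.378, Solyc05g007830.2 ran from -0.320 to 0.567. Between the genotypes without GA3, Solyc06g076220.2 ran from -0.305 to 1.29. Between them with GA3, Solyc06g049050.2 ran from -0.174 to 0.0681, Solyc02g088100.2 ran from -0.196 to 0.297, Solyc04g081870.2 ran from -0.214 to 0.0246, Solyc03g031840.2 ran from -0.0391 to 0.198, Solyc05g007830.2 ran from -0.879 to 0.131. For the difference of GA effects, Solyc06g076220.2 ran from -0.548 to 1.06, Solyc05g007830.2 ran from -0.450 to 0.554. For GA3 averaged over the genotypes, Solyc03g031840.2 ran from -0.202 to 0.0231, Solyc05g007830.2 ran from -0.220 to 0.324.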

Other observations

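The 36 identifiers nearest to the 10 genes in identifier order, up to 2 on each side, included 25 tested genes, none of them called by edgeR for GA3 in M82. Both libraries with GA3 exceeded both without in 6 of the 25 in M82, where 19.3% of all genes did so. The 2 identifiers just below Solyc06g049050.2 were among these 6, with log2 fold changes of 1.06 and 0.92 (edgeR adjusted p = 0.370 and 0.403) beside 1.06 for Solyc06g049050.2 itself. The 2 just above it were at 0.05, with overlapping groups, and at 0.25, also among the 6. The tested neighbours of Solyc02g088100.2 were at 0.88, among the 6, and at -0.47, with both libraries with GA3 below both without. Those of Solyc04g081870.2 were at 0.17 and 0.39, with overlap, and at -0.65, with both libraries with GA3 below. Such an order, both below, was found in 16.6% of all genes. The identifiers on either side of the near-silent pair Solyc08g077900.2 and Solyc08g077910.2 had means of 112 and 30.4 CPM over the 8 libraries.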
